A study of Mus musculus with 8 samples.

Results

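The Rab GTPase genes comprised 59 of the 27179 genes in a table of raw RNA-seq counts from 8 mouse mammary tumours. Members were chosen by name alone, as every gene whose Entrez identifier maps to a mouse symbol made of Rab, a number and at most a paralogue letter, so Rab-interacting genes were not among them. The tumours grew from 4T1.13 cells, a metastatic line of the BALB/c mammary carcinoma 4T1, injected into the mammary gland of young adult female BALB/c mice with an intact immune system. In 4 tumours (VC) the cells carried a vector control and in 4 (miR-21-KD) they carried a knockdown of miR-21, and the labels give 100000 cells injected and collection on day 14, whereas the text of the study gives an earlier day. Both lines carried the same lentiviral vector with mCherry and a hygromycin resistance gene, in which the H1 promoter drove either a scrambled RNA or an RNA that sequesters mature miR-21. Each line was a pool of expanded single-cell clones, and the knockdown was in the tumour cells alone, while the host cells of the tumour were not transduced. Whole tumours were sequenced, with 12134849 to 13592695 counts per tumour, so each value is a mixture of carcinoma and host cells, and fewer cells of a type and less RNA per cell cannot be told apart.

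Rab GTPases are small membrane-bound switches that mark each compartment of the secretory and endocytic pathways. In the GTP-bound form a Rab recruits effectors such as tethers, motor adaptors and sorting proteins, exchange factors (GEFs) switch it on, and GTPase activating proteins (GAPs) switch it off. Many Rabs come as close paralogues that share effectors but differ in tissue and route, and in carcinoma they are studied for recycling of receptors and adhesion molecules, secretion of proteases and cell polarity.

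The mature microRNA that the vector sequesters was printed first because its seed defines the matches searched for in the Rab transcripts. Mouse miR-21a-5p, from RefSeq, lies at chr11:86584120-86584141 on the minus strand of GRCm38.p6, and capitals mark the seed, bases 2 to 8.
miR-21a-5p: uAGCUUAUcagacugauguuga
The gene of the microRNA itself, Mir21a, had 0 counts in each of the 8 tumours, which allows up to 0.221 to 0.245 CPM (counts scaled to library size) per tumour and gives no check of the knockdown, since sequestration acts on the mature microRNA. The 3′ UTRs of GENCODE vM21 (the longest per gene, transcript strand only) were searched for ATAAGCTA, ATAAGCT and TAAGCTA, the first of which contains the other two. A match was found in 11 of the 59 Rab genes (18.6%) and in 2301 of 20169 genes with a 3′ UTR (11.4%), and the Rab 3′ UTRs were longer, with a median of 1949 against 992 bases over all genes. The 4 sites below are in genes described later, with the match in capitals and coordinates in GRCm38. Rab11a holds the longest match of the family (chr9:64716480-64716502, minus strand), Rab6a is the better expressed Rab6 paralogue (chr7:100640615-100640637, plus strand), and Rab39 (chr9:53686184-53686205, minus strand) and Rab2b (chr14:52262693-52262715, minus strand) moved in opposite directions.
Rab11a: accttagaaATAAGCTAttgttt
Rab6a: gttttgtattTAAGCTAcactta
Rab39: acccgtttcATAAGCTggtgga
Rab2b: ccctggagatTAAGCTAggttct
Of the 8 tested Rab genes with a match, 4 passed the test described next, which 39.1% of all tested genes passed, and with so few genes nothing is read from the share. Rab11a, Rab26 and Rab39 were higher in miR-21-KD tumours, Rab2b was lower, and Rab6a, Rab22a, Rab27b and Rab30 had no call. The matches in Rab26 and Rab22a lie in transcript ends outside the RefSeq gene spans. Rab6b, the member furthest below its VC level in miR-21-KD tumours, had no match in a 3′ UTR of 4030 bases.

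Rab genes passed the test in both directions. Of the 59 members, 52 had enough counts to be tested, among 14382 tested genes, and 19 passed the edgeR quasi-likelihood test at an adjusted p under 0.05, 13 of them higher and 6 lower. These counts leave out Rab6b, which had been singled out for its low counts in miR-21-KD tumours before the family was defined and is given as values with no test. The background was 39.1% of all tested genes called, 19.6% higher and 19.5% lower, against 37.3% of the 51 Rab genes given a test, 25.5% higher and 11.8% lower. The median log2 fold change was 0.09 over the Rab genes and −0.01 over all tested genes, and the median absolute log2 fold change was 0.26 and 0.37. The 4 values of each group did not overlap in 19 tested members (36.5%), Rab6b included, against 35.2% of all genes. Rab25, Rab26, Rab38 and Rab39 reached the filter on low counts in all tumours of the miR-21-KD group but not of the VC group, and Rab6b in all tumours of the VC group only. The balance of calls and the number of members without overlap thus depend in part on the filter, and nothing is read from either. Among the 47 tested members that reached the filter in every tumour of both groups or of neither, 9 were higher and 6 lower. With no filter, Rab25, Rab26, Rab38 and Rab39 had edgeR adjusted p values of 0.0238, 0.0176, 0.0129 and 0.0270. Without VC replicate 2 or without VC replicate 3, 12 Rab genes passed the test (22.5% and 20.1% of all tested genes), and without miR-21-KD replicate 2, 26 did (46.8%). The count was 29 with limma-voom and quality weights (57.0% of all genes), 1 in a test against a 1.5-fold change (3.77%) and 3 at an adjusted p under 0.01 (9.92%).

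**Figure D1:**
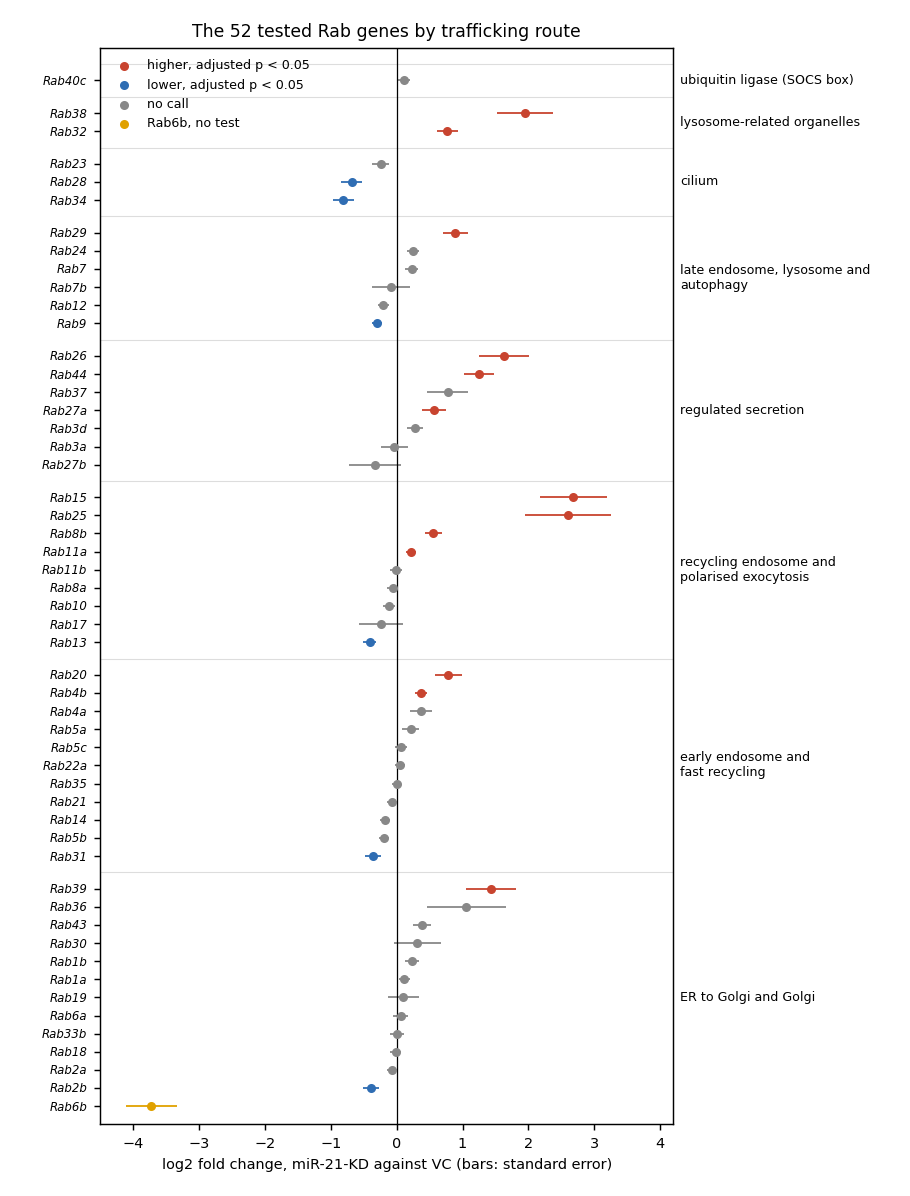
Log2 fold change of each of the 52 tested Rab genes, miR-21-KD against VC tumours (horizontal axis; bars are standard errors of the fit), grouped by trafficking route. Points right of the line are higher in miR-21-KD tumours (13 called, red) and points left of it lower (6 called, blue), most members lie close to 0, and Rab6b (yellow, no test) stands apart at −3.73.

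In all, Rab transcripts made up 0.396% ± 0.00783 of counts in the VC group and 0.401% ± 0.00606 with the knockdown (SD, n = 4 each), with 0.385 to 0.402% and 0.393 to 0.406% in single tumours, so the ranges overlapped. Levels per length, in CPM per kilobase of merged exon, set the order among members. Rab5c, a Rab of early endosome fusion, was highest at 176 in the VC group and 185 in the miR-21-KD group. Rab1a, which acts between endoplasmic reticulum and Golgi, followed at 100.1 and 109, and Rab2a, of the same route, at 90.6 and 86.4. Next came Rab1b at 60.2 and 70.5, Rab10 at 62.0 and 57.0, and Rab31 at 60.9 and 47.5. These leading members belong to routes that every cell runs. Rab6a was at 39.1 and 40.8 and Rab8b at 30.7 and 45.1, so the order of the 2 genes differed between the groups, with overlapping values in both. Rab6b, at 5.67 in VC tumours, was at 0.427 in miR-21-KD tumours. Lowest were Rab3b at a mean of 0.0139 and Rab9b at 0.00247 over all tumours and Rab3c at 0 counts in each.

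**Figure D2:**
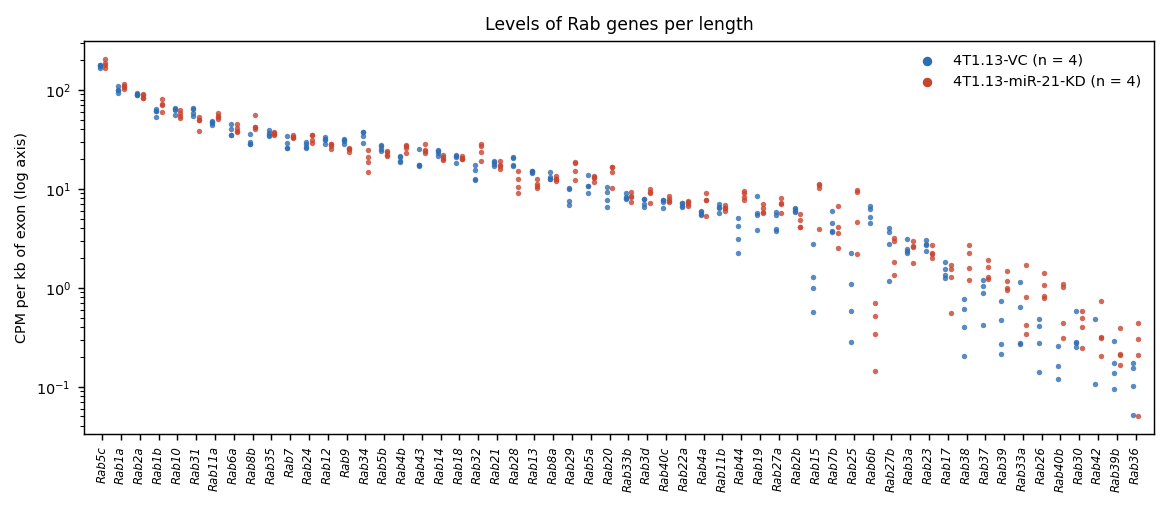
Level of the 56 Rab genes with a mean over 0.1 CPM per kilobase of exon, in each tumour (log axis; blue VC, red miR-21-KD, n = 4 each; tumours with 0 counts are not drawn), ordered by the mean over all tumours. Rab5c is highest, and the scatter between tumours of 1 group widens towards the low end.

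The Rab6 pair had the largest shift between paralogues in these tumours. Rab6a is the widely expressed Rab of Golgi transport and Rab6b its paralogue best known from neurons. Rab6a (Entrez 19346, chr7:100607575-100641268, plus strand, GRCm38.p6) was at 169, 131, 151 and 132 CPM in VC tumours and at 144, 155, 170.4 and 139 CPM in miR-21-KD tumours. The 2 groups of Rab6a overlapped almost completely, with a log2 fold change of 0.06 (SE 0.11, edgeR adjusted p = 0.685). Rab6b (Entrez 270192, chr9:103111667-103185276, plus strand) was at 26.3, 33.7, 31.1 and 23.0 CPM in VC tumours and at 0.727, 3.54, 2.60 and 1.72 CPM in miR-21-KD tumours, from 281 to 423 counts and from 9 to 45 counts. Every miR-21-KD tumour lay far below every VC tumour, and the mean of 28.5 CPM ± 4.82 against 2.15 CPM ± 1.2 (SD, n = 4 each) is a 13.2-fold lower level in the fit (log2 fold change −3.73, SE 0.39). The Rab6a count divided by the Rab6b count, with no correction for length, had a mean log2 of 2.36 ± 0.31 (SD, n = 4) in VC tumours against 6.33 ± 0.89 (SD, n = 4) with the knockdown, from 5.13-fold to 80.2-fold. No stretch of 50 bases of Rab6b occurred in another gene's transcripts, and 1.24% of those of Rab6a did. Rab6a overlaps Mrpl48 on the opposite strand, and whether counting used strand is not given in the sources used here. Of 4 tested markers of neurons and Schwann cells 2 passed the test as higher with the knockdown and none as lower, with a summed level of 6.87 to 13.1 CPM in VC tumours and 10.3 to 37.2 CPM in miR-21-KD tumours and Snap25 at 0 in all of them. Leaving out 1 tumour at a time gave 1 to 3 higher calls in this list, and 1 of the 2 calls held in every case. The 5 proliferation markers all fell, from a summed 1148 to 1659 CPM to 409 to 1206 CPM. Of these calls only that of Ccnb1 passed whichever tumour was left out, and it was the 1 left without VC replicate 2 or 3 or without miR-21-KD replicate 3 or 4. The part of these markers in the level of Rab6b was not tested.

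**Figure D3:**
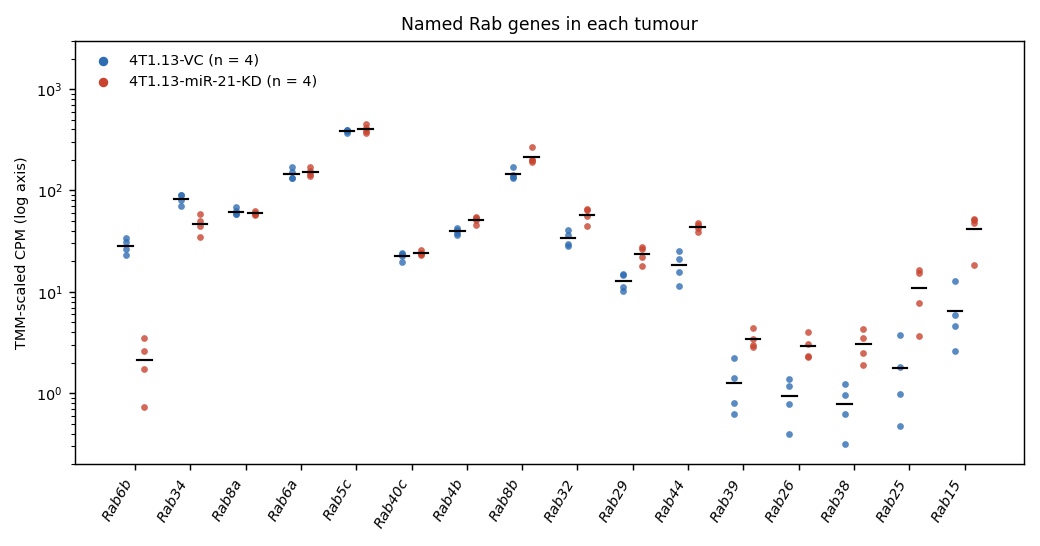
CPM scaled by the trimmed mean of M-values (log axis) of the 16 Rab genes described by tumour, in 4 VC (blue) and 4 miR-21-KD (red) tumours, with black lines at group means, ordered by fold change. Rab6b at the left and Rab15 at the right have the lowest and the highest miR-21-KD level relative to VC, while Rab6a, Rab8a, Rab5c, Rab25 and Rab40c overlap between groups.

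Among the other 12 tested Rabs of the endoplasmic reticulum and Golgi, 1 was higher, 1 was lower and 10 had no call. Over all tested genes 19.6% were higher and 19.5% lower. The median log2 fold change of all 13 Rabs of this route was 0.10. Rab39 (Entrez 270160, chr9:53684110-53706232, minus strand), listed here with the Golgi Rabs, was at 1.40, 0.798, 0.630 and 2.21 CPM in VC tumours and at 4.36, 2.99, 2.84 and 3.44 CPM in miR-21-KD tumours. All 4 miR-21-KD values lay above all VC values, and Rab39 rose by 1.43 on the log2 scale (SE 0.38, edgeR adjusted p = 0.0206), from a level of few counts that reached the filter in 3 of 4 VC tumours. The call was lost without VC replicate 2 (0.0582), VC replicate 3 (0.0541), miR-21-KD replicate 1 (0.0526) or miR-21-KD replicate 4 (0.0516), as edgeR adjusted p. Rab2b, the less abundant of the Rab2 pair, fell by 0.39 on the log2 scale (SE 0.12, edgeR adjusted p = 0.0316), from 24.2 to 26.8 CPM in VC tumours to 17.1 to 23.0 CPM in miR-21-KD tumours. This call was lost on leaving out VC replicate 2, 3 or 4 or miR-21-KD replicate 3 or 4 (edgeR adjusted p = 0.056 to 0.0851), with upper-quartile scaling (0.0515) and with genes of at least 10 counts in every tumour only (0.0556). Rab1a and Rab1b, the main Rabs of traffic from the endoplasmic reticulum, had log2 fold changes of 0.12 (SE 0.09) and 0.23 (SE 0.11) with no call, and Rab18 one of −0.01 (SE 0.08).

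On the early endosome and the fast recycling route, 2 of 11 tested members rose (18.2%), 1 fell (9.09%) and 8 had no call. This compares with 19.6% higher and 19.5% lower over all tested genes, and the median log2 fold change of the route was 0.05. Rab4b (Entrez 19342, chr7:27168433-27178883, minus strand), which returns receptors quickly to the surface, was at 37.7, 36.8, 40.9 and 42.6 CPM in VC tumours and at 50.7, 45.9, 54.4 and 53.7 CPM in miR-21-KD tumours. The groups of Rab4b did not overlap, and the log2 fold change was 0.37 (SE 0.09, edgeR adjusted p = 0.0142). Its value is uncertain, because 58.1% of its stretches of 50 bases are shared with Gm21983, an overlapping locus on the same strand. Rab20, of endosome and phagosome maturation, rose by 0.78 on the log2 scale (SE 0.20, edgeR adjusted p = 0.0182), with 9.22 to 14.5 CPM in VC tumours and 14.1 to 23.3 CPM in miR-21-KD tumours. The lowest miR-21-KD value of Rab20 lay within the VC range, and without VC replicate 2 or 3 or miR-21-KD replicate 3 or 4 the edgeR adjusted p was 0.051 to 0.0541. Rab31, a relative of Rab22a between Golgi and endosomes, fell by 0.36 on the log2 scale (SE 0.12, edgeR adjusted p = 0.0382) and lost the call with 10 counts required in every tumour (0.0614) and without VC replicate 1, 2 or 3 or miR-21-KD replicate 3 or 4 (0.0582 to 0.0976). Rab5c (Entrez 19345, chr11:100715003-100738215, minus strand), the most abundant member per length, was at 369, 387, 395 and 397 CPM in VC tumours and at 389.7, 366, 455 and 413 CPM in miR-21-KD tumours. Its groups overlapped, with a log2 fold change of 0.07 (SE 0.09, edgeR adjusted p = 0.578), and Rab5a and Rab5b, the other Rabs of homotypic endosome fusion, had no call at 0.21 and −0.19.

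The route of the recycling endosome and polarised exocytosis held the 2 largest rises of the family. Of its 9 tested members 4 were higher, 1 was lower and 4 had no call, against 19.6% higher and 19.5% lower over all tested genes, with a median log2 fold change of −0.01. Rab15 (Entrez 104886, chr12:76797960-76822759, minus strand), a Rab of early and recycling endosomes, was at 12.9, 2.63, 4.57 and 5.97 CPM in VC tumours and at 51.8, 18.2, 50.7 and 47.4 CPM in miR-21-KD tumours. Each miR-21-KD tumour was above each VC tumour, miR-21-KD replicate 2 well below the rest of its group, and Rab15 was 6.42-fold higher (log2 fold change 2.68, SE 0.50, edgeR adjusted p = 0.00799). Rab25 (Entrez 53868, chr3:88542029-88548279, minus strand), the Rab11 relative found in epithelia, was at 3.76, 0.479, 1.81 and 0.981 CPM in VC tumours and at 7.68, 3.69, 16.3 and 15.5 CPM in miR-21-KD tumours. Rab25 reached the filter in 3 of 4 VC tumours. The lowest miR-21-KD value, again of replicate 2, lay just under the highest VC value, of replicate 1, and Rab25 was 6.07-fold higher (log2 fold change 2.60, SE 0.66, edgeR adjusted p = 0.0174, or 0.0513 without VC replicate 3). With 1 tumour left out the log2 fold change of Rab25 was 2.29 to 3.30, highest without VC replicate 1. Of 10 epithelial markers 8 rose, among them Krt19, Epcam and Cldn4 at log2 fold changes of 3.60, 1.93 and 2.60, and none was at 0. Of the 8 rises, 2 passed whichever tumour was left out, those of Krt19 and Esrp2, and 4 passed without VC replicate 2 or 3 or without miR-21-KD replicate 3 or 4. Krt18 fell by 1.15 on the log2 scale (edgeR adjusted p = 0.0374, up to 0.0941 with 1 tumour left out). Krt8 had a log2 fold change of −0.88 and no call (edgeR adjusted p = 0.0870, or 0.0413 with the replicate block). Krt8 and Krt18 were the most abundant markers of the list in VC tumours. The summed level of the list was 1308 to 2267 CPM in VC tumours and 919 to 2032 CPM in miR-21-KD tumours. The part of the epithelial markers in the levels of Rab15 and Rab25 was not tested.

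Rab8b (Entrez 235442, chr9:66843609-66919705, minus strand), which with Rab8a carries vesicles to polarised membrane, was at 169.7, 133, 136 and 142 CPM in VC tumours and at 267, 198, 190.2 and 199 CPM in miR-21-KD tumours. All miR-21-KD values were above the VC values, with miR-21-KD replicate 1 highest, and Rab8b rose by 0.56 on the log2 scale (SE 0.13, edgeR adjusted p = 0.0144). Rab8a (Entrez 17274, chr8:72161200-72181366, plus strand) was at 62.2, 58.2, 58.3 and 68.7 CPM in VC tumours and at 63.4, 59.3, 56.7 and 58.4 CPM in miR-21-KD tumours. The groups of Rab8a overlapped, with a log2 fold change of −0.06 (SE 0.08, edgeR adjusted p = 0.597). Rab11a, the general Rab of the recycling endosome, with the long miR-21 match printed above, was at 134 to 145 CPM in VC tumours and at 153 to 174 CPM in miR-21-KD tumours. Its log2 fold change of 0.22 (SE 0.07) passed the edgeR test at an adjusted p of 0.0442, but not with the replicate number as a block (0.0644), with library size alone (0.0609) or with no filter (0.129). Without VC replicate 1, 2, 3 or 4 or miR-21-KD replicate 1, 3 or 4 the edgeR adjusted p of Rab11a was 0.0622 to 0.136. Rab13, known from tight junctions, fell by 0.41 on the log2 scale (SE 0.09, edgeR adjusted p = 0.0124), from 33.3 to 35.3 CPM to 23.6 to 29.1 CPM.

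Among the Rabs of regulated secretion Rab26, Rab27a and Rab44 rose and the other 4 tested members had no call, and both Rabs of lysosome-related organelles rose, lists too short to set against the 19.6% of all tested genes that rose. Rab44 (Entrez 442827, chr17:29114128-29148980, plus strand), a large Rab of granule-bearing immune cells, was at 25.5, 11.4, 15.7 and 21.3 CPM in VC tumours and at 48.3, 39.1, 42.3 and 45.7 CPM in miR-21-KD tumours. The groups of Rab44 were well separated, and it had the smallest adjusted p of the members given a test (log2 fold change 1.25, SE 0.23, edgeR adjusted p = 0.00739). Rab26 (Entrez 328778, chr17:24529054-24533747, minus strand), of secretory granules, was at 1.18, 0.399, 0.788 and 1.39 CPM in VC tumours and at 4.04, 3.07, 2.27 and 2.35 CPM in miR-21-KD tumours. These low values, which reached the filter in 3 of 4 VC tumours, did not overlap, and Rab26 rose by 1.63 on the log2 scale (SE 0.38, edgeR adjusted p = 0.0135). Rab26 overlaps Traf7 on the same strand, and 5.95% of its stretches of 50 bases occur in transcripts of another gene, a limit at 5 to 50 counts. Rab27a, which docks secretory lysosomes and melanosomes at the membrane, rose by 0.57 (SE 0.18, edgeR adjusted p = 0.0335), with 14.6 to 22.6 CPM in VC tumours and 22.2 to 31.2 CPM in miR-21-KD tumours. The ranges of Rab27a just overlapped, and without VC replicate 2 or 3 or miR-21-KD replicate 1 or 4 its edgeR adjusted p was 0.078 to 0.0921. Rab37, another Rab of secretory granules, had groups that did not overlap, at 2.23 to 6.46 CPM and 6.60 to 10.3 CPM, but no call (log2 fold change 0.77, edgeR adjusted p = 0.0781, or 0.0278 with the replicate block). Rab3a, of synaptic vesicles, had a log2 fold change of −0.04 (SE 0.21) and Rab27b one of −0.33 (SE 0.40).

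Rab32 (Entrez 67844, chr10:10545039-10558207, minus strand) and Rab38 (Entrez 72433, chr7:88430273-88491572, plus strand) sort cargo to melanosomes and related organelles. Rab32 was at 36.1, 28.5, 29.4 and 40.5 CPM in VC tumours and at 65.9, 44.3, 55.4 and 63.9 CPM in miR-21-KD tumours. Rab38 was at 0.959, 0.319, 0.630 and 1.23 CPM in VC tumours and at 4.28, 1.89, 2.52 and 3.52 CPM in miR-21-KD tumours. Rab38 reached the filter in 2 of 4 VC tumours. Neither gene overlapped between groups, and the log2 fold changes were 0.77 (SE 0.16, edgeR adjusted p = 0.0102) and 1.95 (SE 0.42, edgeR adjusted p = 0.0110). Of 5 melanocyte markers 1, near the limit of detection, could be tested and had no call in edgeR, DESeq2 or limma-voom, nor at an unadjusted p under 0.05, Tyr was at 0 in all tumours, and the summed level was 0.798 to 1.40 CPM in VC tumours and 0.943 to 2.83 CPM in miR-21-KD tumours. Of 10 macrophage and monocyte markers 9 rose, from a summed 3561 to 5548 CPM in VC tumours to 6597 to 11295 CPM in miR-21-KD tumours, and 4 of 5 general leukocyte markers rose, from 1004 to 1876 CPM to 2071 to 2927 CPM. None of either list was at 0. Of 6 mast cell markers 1 rose (175 to 368 CPM and 277 to 402 CPM summed), and 0 of 5 tested neutrophil markers passed the edgeR test (274 to 780 CPM and 366 to 646 CPM), against 2 at an unadjusted p under 0.05, 2 with DESeq2, 1 with limma-voom and 2 with the replicate block. The part of any of these cell types in the levels of Rab44, Rab27a, Rab32 and Rab38 was not tested.

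On the late endosome, lysosome and autophagy route 1 of 6 tested members rose, 1 fell (16.7% each) and 4 had no call. Over all tested genes 19.6% were higher and 19.5% lower, and the median log2 fold change of the route was 0.07. Rab29 (Entrez 226422, chr1:131867210-131872887, plus strand), a partner of the kinase LRRK2, was at 14.5, 11.2, 10.1 and 15.1 CPM in VC tumours and at 27.5, 18.1, 22.2 and 26.8 CPM in miR-21-KD tumours. The groups of Rab29 did not overlap, and the log2 fold change was 0.89 (SE 0.19, edgeR adjusted p = 0.0101). Rab9, which returns mannose 6-phosphate receptors from late endosomes to the Golgi, fell by 0.30 on the log2 scale (SE 0.08, edgeR adjusted p = 0.0177), from 49.9 to 56.3 CPM to 40.8 to 45.4 CPM, with an edgeR adjusted p of 0.0543 without VC replicate 2 and 0.0539 without VC replicate 3. Rab7, the main Rab of traffic to lysosomes, had a log2 fold change of 0.23 (SE 0.10) and no call, and Rab24, of autophagy, one of 0.24 (SE 0.09, edgeR adjusted p = 0.0544, or 0.0307 with the replicate block). Rab12, which sends the transferrin receptor to lysosomes, had values that did not overlap, at 87.0 to 102 CPM in VC tumours and 76.7 to 86.3 CPM in miR-21-KD tumours, and no call (log2 fold change −0.20, SE 0.08, edgeR adjusted p = 0.0687).

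Of the 3 tested cilium Rabs 2 fell and none rose, at a median log2 fold change of −0.68, a list too short to set against the 19.5% of all tested genes that fell. Rab34 (Entrez 19376, chr11:78188427-78192193, plus strand), needed to build primary cilia inside the cell, was at 81.0, 89.8, 90.6 and 69.6 CPM in VC tumours and at 34.9, 58.4, 50.2 and 45.0 CPM in miR-21-KD tumours. No values overlapped, and Rab34 fell by 0.81 on the log2 scale (SE 0.16, edgeR adjusted p = 0.00863). Rab28, a ciliary Rab of photoreceptors, fell by 0.68 (SE 0.16, edgeR adjusted p = 0.0144), from 76.3 to 94.1 CPM to 41.1 to 68.9 CPM. Rab23, an inhibitor of Hedgehog signalling, had overlapping groups and no call (log2 fold change −0.24, SE 0.13, edgeR adjusted p = 0.167). In both Rab34 and Rab28 the highest miR-21-KD value was that of replicate 2, which was also the tumour of that group with the highest levels of the 5 proliferation markers (Mki67 at 279 CPM against 131 to 149 CPM in the others). The part of proliferating cells in these levels was not tested. Rab40c (Entrez 224624, chr17:25882114-25919714, minus strand), a Rab with a SOCS box that binds a ubiquitin ligase, was at 19.7, 22.7, 23.9 and 24 CPM in VC tumours and at 23.0, 23.5, 24.4 and 26.1 CPM in miR-21-KD tumours, overlapping groups with a log2 fold change of 0.10 (SE 0.10, edgeR adjusted p = 0.435).

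The 32 tested members with no call had absolute log2 fold changes of at most 1.06, the value of Rab36. Several of them gained a call when 1 tumour was left out. Without miR-21-KD replicate 2, Rab1b, Rab23, Rab24, Rab36, Rab3d and Rab4a passed the edgeR test (adjusted p = 0.0148 to 0.0495). Without VC replicate 4, Rab12 (0.0397) and Rab43 (0.0095) passed, and without VC replicate 1, Rab5a (0.0368) and Rab7 (0.0219) did. Rab43 is uncertain in any case, since 74.5% of its stretches of 50 bases are shared with the overlapping locus Gm45140. With the replicate block, Rab24, Rab36 and Rab37 gained a call (0.0307, 0.0465 and 0.0278). The 7 members that did not pass the filter were Rab3b, Rab3c, Rab9b, Rab33a, Rab39b, Rab40b and Rab42. Among them Rab40b, the paralogue of Rab40c, was at 0.516, 0.239, 0 and 0.327 CPM in VC tumours and at 2.18, 0.629, 0.893 and 2.04 CPM in miR-21-KD tumours, which did not overlap. With no filter Rab40b passed the edgeR test (adjusted p = 0.0347) and the other 5 of these genes with any counts did not. Leaving out a tumour brought Rab40b past the filter in 5 cases, with edgeR adjusted p values of 0.0286 without VC replicate 1, 0.0710 without VC replicate 2, 0.0499 without VC replicate 3, 0.0450 without VC replicate 4 and 0.0157 without miR-21-KD replicate 2.

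Ratios of paralogues within a tumour compare 2 genes in the same library, so scaling between libraries cancels. The values are log2 of the ratio of counts, with 0.5 added to each and no correction for length, so only the shift between groups is read. Of 26 listed pairs 17 had both members past the filter, and the 16 other than Rab6a/Rab6b were compared by an exact two-sided permutation test of 4 against 4, whose smallest p is 0.0286. Groups did not overlap in 3 of the 16 (18.8%), and each of these had p = 0.0286 and an adjusted p of 0.114 in the exact permutation test, so 0 pairs passed after adjustment. The Rab8a/Rab8b ratio was −1.45, −1.19, −1.22 and −1.05 in VC and −2.07, −1.74, −1.74 and −1.77 in miR-21-KD tumours, a shift of −0.61 towards Rab8b. The Rab32/Rab38 ratio was 5.18, 6.31, 5.46 and 5.00 in VC and 3.93, 4.52, 4.44 and 4.17 in miR-21-KD tumours, a shift of −1.22 towards the scarcer Rab38. The Rab5b/Rab5c ratio was −1.69, −1.73, −1.90 and −1.97 in VC and −1.97, −1.99, −2.15 and −2.2 in miR-21-KD tumours, a shift of −0.26, with the nearest tumours of the 2 groups almost equal. All 3 of these shifts were towards the second gene of the pair. Rab11a/Rab25 moved by −2.52, from a mean of 6.65 ± 1.21 to 4.13 ± 0.93 (SD, n = 4), and the groups overlapped (exact permutation p = 0.0571, adjusted p = 0.114). With the interaction of gene and group in limma-voom, 6 of the 16 pairs passed, namely Rab8a/Rab8b (adjusted p = 0.0148), Rab11a/Rab25, Rab11b/Rab25 and Rab32/Rab38 (each 0.0256), Rab5a/Rab5b (0.0261) and Rab22a/Rab31 (0.0431), in fits that take the spread from all genes. Rab25 and Rab38, in 3 of these pairs and in 1 of those that did not overlap, did not reach the filter in every VC tumour, and pairs with a member below the filter were not compared, so nothing is read from the number of pairs. Within replicate numbers, 8 pairs had differences of 1 sign in all 4, where the smallest p is 0.125. Rab1a/Rab1b at −0.10 (exact permutation p = 0.429) and Rab4a/Rab4b at −0.03 (exact permutation p = 0.743) shifted by less than the spread between tumours. No listed paralogue pair shared a stretch of 50 bases, the members with such a stretch in common being Rab4b and Rab11b, which are not a listed pair.

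**Figure D4:**
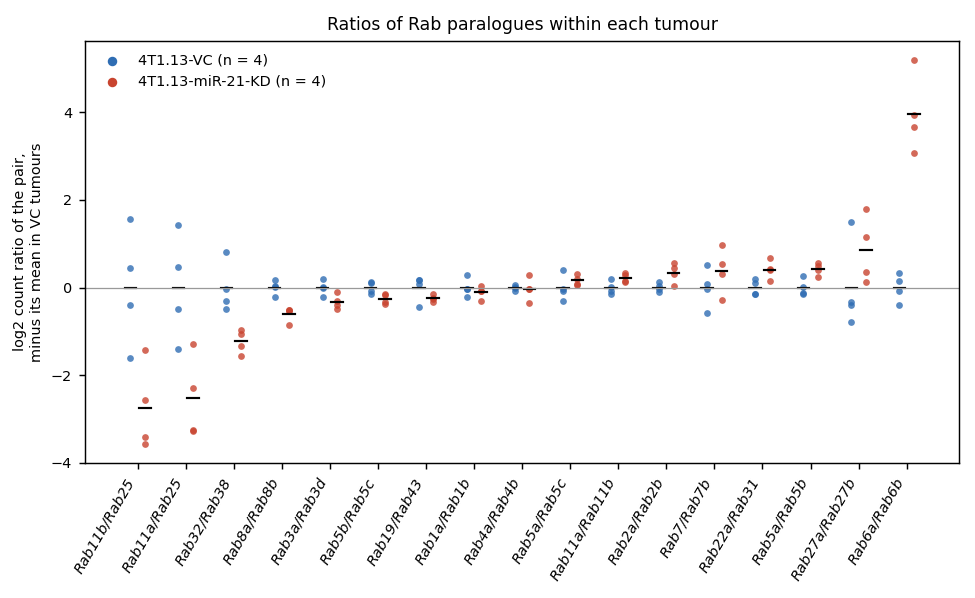
Log2 count ratio of 17 Rab paralogue pairs in each tumour, minus the mean of the 4 VC tumours (vertical axis; blue VC, red miR-21-KD, black lines group means), ordered by shift. Rab6a/Rab6b at the right is given without a test, and the groups of Rab32/Rab38, Rab8a/Rab8b and Rab5b/Rab5c do not overlap. Rab11b/Rab25 and Rab11a/Rab25 at the left have the largest shifts of the tested pairs, −2.74 and −2.52, with overlapping groups. The remaining pairs shift by −0.32 to 0.85.

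The genes that run the Rab cycle had calls in both directions. Among 144 tested genes of 4 lists, drawn up with earlier results of these data known, 43 were higher and 19 were lower in the edgeR test, against a background of 19.6% and 19.5% of all tested genes. Because the lists were made with those results known, nothing is read from this balance or from that of a single list. With upper-quartile scaling the split was 49 and 12, against 21.2% and 17.4% of all genes. The number called was 62, with 39.1% of all tested genes called. It was 37 without VC replicate 2 (22.5% of all tested genes), 30 without VC replicate 3 (20.1%), and 40, 38 and 40 without miR-21-KD replicates 1, 3 and 4 (26.5%, 25.8% and 23.3%), so the number called was lower over all genes as well. Of 8 tested genes for prenylation, escort and membrane extraction 1 rose and 1 fell, at a median log2 fold change of −0.08. Gdi2, a GDP dissociation inhibitor that draws Rabs off membranes, was at 526 CPM ± 30.3 without and 632 CPM ± 24.5 with the knockdown (SD, n = 4). The call was near the threshold (log2 fold change 0.26, SE 0.09, edgeR adjusted p = 0.0447). It was lost with the replicate block (0.0530), and leaving out 1 tumour at a time gave edgeR adjusted p values of 0.0312 to 0.140.

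Of 45 tested exchange factors 10 rose (22.2%) and 7 fell (15.6%), against 19.6% and 19.5% of all tested genes, at a median log2 fold change of 0.04. Rin3, a GEF of Rab5, was at 48.8, 40.5, 40.0 and 55.7 CPM in VC tumours and at 93.5, 72.5, 79.2 and 90.6 CPM in miR-21-KD tumours (log2 fold change 0.86, SE 0.13, edgeR adjusted p = 0.00571). Rab3il1, a GEF of Rab8, and Dennd2a, of the DENN family, were higher by 0.96 (SE 0.14) and 1.40 (SE 0.24). Dennd3, a GEF of Rab12, was lower by a log2 fold change of −0.77 (SE 0.11, edgeR adjusted p = 0.00569), at 36.2 CPM ± 3.34 and 21.2 CPM ± 2.18 (SD, n = 4), and none of these 4 overlapped between groups. Trappc1, a subunit of the TRAPP complexes that activate Rab1, was at −0.34 (SE 0.10), with an edgeR adjusted p up to 0.0717 when 1 tumour was left out.

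Of 36 tested GAPs 14 rose (38.9%) and 7 fell (19.4%), against 19.6% and 19.5% of all tested genes, at a median log2 fold change of 0.11. Tbc1d4, the GAP of Rab8, Rab10 and Rab14 on the route of the glucose transporter GLUT4, was at 57.6, 41.5, 43.0 and 44.1 CPM in VC tumours and at 141, 101, 90.4 and 97.6 CPM in miR-21-KD tumours (log2 fold change 1.21, SE 0.17, edgeR adjusted p = 0.00523). Tbc1d9 and Tbc1d30 were higher by 1.46 (SE 0.23) and 1.25 (SE 0.20). Lower were Rabgap1 at −0.52 (SE 0.08), Tbc1d31 at −1.31 (SE 0.27) and Tbc1d25, a GAP of Rab33b in autophagy, at −0.61 (SE 0.14). None of these 6 overlapped between groups. In the adipocyte list, a cell type in which this GAP is well known, 5 of 5 markers rose, from a summed 94.9 to 378 CPM to 530 to 1511 CPM, and its part in the level of Tbc1d4 was not tested.

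Of 55 tested effectors, of 61 listed, 18 rose and 4 fell, at a median log2 fold change of 0.18, and Rims1 was at 0 counts in all tumours. The steepest rise of the named genes was that of Mlph, which links Rab27a to myosin Va, at 9.66, 2.23, 4.33 and 2.53 CPM in VC tumours and 44.1, 22.5, 94.2 and 96 CPM in miR-21-KD tumours (log2 fold change 3.76, SE 0.61, edgeR adjusted p = 0.00629). Sytl2, also an effector of Rab27, was at 1.34 to 3.47 CPM and 7.79 to 13.4 CPM (log2 fold change 2.04, SE 0.32), and Unc13b, a vesicle priming factor, at 3.91 to 10.6 CPM and 13.8 to 27.2 CPM (1.78, SE 0.33). Neither overlapped between groups. Lower were Myo5c, an epithelial myosin that binds Rab8 and Rab10, at −1.44 (SE 0.27), Micall1, of tubular recycling endosomes, at −0.71 (SE 0.17), and Sh3tc2, an effector of Rab11, at −0.82 (SE 0.22, edgeR adjusted p = 0.0198, up to 0.0612 with 1 tumour left out).

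**Figure D5:**
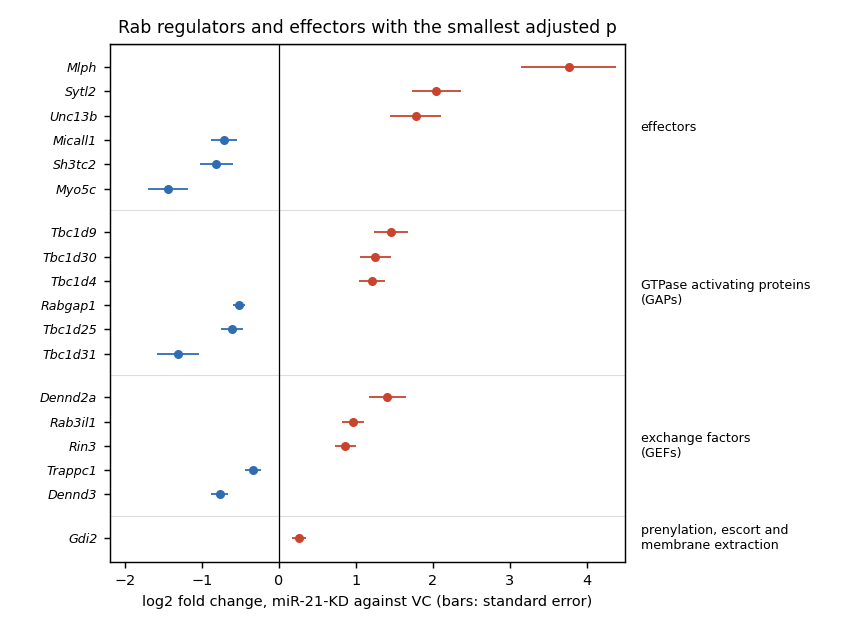
Log2 fold change, miR-21-KD against VC tumours (horizontal axis; bars are standard errors), of called regulators and effectors, chosen by the smallest adjusted p in each direction, up to 3 per list, less some that are not reported here. Red points are higher and blue points lower in miR-21-KD tumours, from Mlph at 3.76 to Myo5c at −1.44.

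The other marker lists describe the mixture in which these values were measured. Fibroblast markers rose in 5 of 7 cases, from a summed 2669 to 6973 CPM in VC tumours to 8822 to 19710.3 CPM in miR-21-KD tumours, and T and NK cell markers in 5 of 9, from 42.7 to 177 CPM to 156 to 339 CPM (8 of 9 with DESeq2, with limma-voom or at an unadjusted p under 0.05, and 7 with the replicate block). Of the endothelial markers 1 of 5 rose (353 to 629 CPM and 515 to 735 CPM), against 1 higher and 1 lower with the replicate block. Among the platelet and megakaryocyte markers 1 of 3 tested rose (108 to 141 CPM and 224 to 494 CPM). Of 5 tested mammary secretory genes 1 was higher and 1 lower, against 2 and 0 with the replicate block and 0 called by limma-voom (33.7 to 211 CPM and 67.0 to 283 CPM). Of 4 B cell markers (1.76 to 141 CPM and 8.52 to 60.4 CPM) and 1 tested skeletal muscle marker (1.91 to 3.07 CPM and 2.19 to 5.58 CPM), 0 passed in edgeR, DESeq2 or limma-voom, and 0 had an unadjusted p under 0.05. Whichever tumour was left out, the edgeR calls that held were 2 of 5 for fibroblasts, 1 of 5 for T and NK cells, 4 of 9 for macrophages and monocytes, 2 of 4 for leukocytes in general and 5 of 5 for adipocytes. They were 1 of 1 for platelets and megakaryocytes and 1 of 2 for neurons and Schwann cells. For endothelium, mast cells and mammary secretory genes 0 calls held. The part of these cell types in the Rab values was not tested.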

How the data were processed

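Total RNA of whole tumours was sequenced by the study. The deposited file holds raw counts per gene, which the authors made with Subread and featureCounts on mm10 per the labels. These also name edgeR and limma, without versions, and counting options (strand, shared reads) are not given in the sources used here. Totals were 12134849 to 13592695 counts per tumour, and 3 counts correspond to 0.221 to 0.245 CPM, which covers counting error only.

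Entrez identifiers were matched to symbols for 25275 of 27179 genes. Genes with low counts were removed (filterByExpr, minimum count 10, minimum total 15), leaving 14382 genes and 99.852% of counts. Levels are CPM scaled by trimmed mean of M-values (TMM), and per-length levels used merged exons of GENCODE vM21. Groups were compared with the robust edgeR 4.0.16 quasi-likelihood test in R 4.3.3 over all genes, with Benjamini-Hochberg adjustment at 0.05. Alternatives were DESeq2 1.42.0, limma 3.58.1 (voom, with and without quality weights), other scalings and filters, a test against a 1.5-fold change, an adjusted p under 0.01, a replicate block and leaving out each tumour. Paralogue ratios, with 0.5 added to counts, were compared by exact permutation tests (scipy 1.17.1). Scripts were tested on simulated data.

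The labels number the tumours 1 to 4 in both groups. Deviations from group means of same-numbered tumours correlated at 0.272, 0.421, 0.175 and 0.376 (other combinations averaged −0.105), which meets the criterion set for pairing (over 0.1 in each), although 3 tumours correlated more with another number: VC replicate 3 with miR-21-KD replicate 2 (0.393), miR-21-KD replicate 1 with VC replicate 4 (0.334) and miR-21-KD replicate 3 with VC replicate 2 (0.204). The values reported are from fits without pairing. Those with the replicate number as a block are given beside a Rab gene or named regulator where they change its call, but not beside every list. With the block, 48 regulators and effectors were higher and 23 lower. Epithelial markers then had 8 higher and 2 lower calls, and endothelial markers 1 higher and 1 lower. Fibroblast markers had 6 higher calls with the block, and neuron and Schwann cell markers 3. The study calls the tumours biological replicates, and counts of replicates differed by more than sampling noise (chi-square of 12.6 to 70.7 per degree of freedom). The tumours of each group grew from the same pooled line. The p values therefore cover spread between tumours, and spread between separately made lines was not measured.

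The members and all lists were chosen with earlier results of these data known. Tumour by tumour values are given for Rab6a and Rab6b, called members with an absolute log2 fold change of at least 0.8, members of paralogue pairs called in opposite directions or with 1 member called and ratios that did not overlap, the member with the smallest adjusted p in each route and the most abundant member. From each of 4 regulator lists, up to 3 called genes per direction are named, and some called genes are not reported here. The 16 marker lists are given by name with their results. Other measurements of the study were not used here.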

Additional observations from a re-analysis of the deposited data

Results flagged for a closer look

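In 34 groups of 4 values (16 Rab genes and the Rab share of counts, in both groups of tumours), a value was looked at again where its gap to the nearest value was too large a part of the range of the group by Dixon's 95% limit, which chance passes in about 1 of 20 groups. This held for 2 values. Rab15 was at 18.2 CPM in miR-21-KD replicate 2, below the 47.4 to 51.8 CPM of the other tumours of its group, a ratio of gap to range of 0.867. Rab8b was at 266.7 CPM in miR-21-KD replicate 1, above the 190.2 to 198.7 CPM of the others, a ratio of 0.888. Without these tumours both genes kept their call.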

How the results depend on the processing

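Of the log2 fold changes of the 16 genes described by tumour, recomputed under 16 alternatives (5 of these genes could not be fitted with 10 counts in every tumour), 230 kept their direction and side of the threshold, 15 of Rab6b, which has no test, kept their direction, 5 fell short of it on leaving out a tumour (Rab25 and Rab39, given above) and 1 reversed, Rab6a without miR-21-KD replicate 3, at −0.000623 (up to 0.14 without another tumour). Against 19 called Rab genes (13 higher, 6 lower), limma-voom with quality weights called 29 (21 higher, with 57.0% of all genes called), the test against a 1.5-fold change 1 (1 higher, 0 lower, Rab15, against 3.77% of genes) and an adjusted p under 0.01 3 (2 higher, 1 lower, 9.92% of genes). Without a fold limit, DESeq2 and limma-voom each called 6 lower. Leaving out each tumour gave 12 to 26 calls (9 to 19 higher, 3 to 7 lower). Of the regulators and effectors, 62 called (43 higher, 19 lower), 8 passed the 1.5-fold test (8 higher, 0 lower, 3.77% of genes) and 20 an adjusted p under 0.01 (16 higher, 4 lower, 9.92% of genes), and the lower calls were 12 with upper-quartile scaling, 12 with 10 counts in every tumour and 29 with quality weights. Leaving out each tumour gave 30 to 75 (24 to 49 higher, 6 to 26 lower). Paralogue ratios separated in 3 pairs, in 8 pairs of 1 sign within the replicate block, in 6 by limma-voom, and in 3 to 8 without 1 tumour, where smaller groups overlap less by construction. The family median stayed between 0.08 and 0.12 without 1 tumour, and the difference in Rab share of counts, 0.00472 percentage points, between 0.000987 and 0.00750. The replicate block changed the calls of Rab11a, Rab24, Rab36, Rab37 and Gdi2 given above and no other Rab gene or named regulator. The median of all genes moved between −0.04 and 0.03 across scalings. The widest errors on the log2 scale were an SE of 0.66 for Rab25 and 0.60 for Rab36, against 0.07 for Rab11a. Rab15, at 33 to 641 counts, followed with an SE of 0.50.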
